A study of Mus musculus with 32 samples.

Results

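Livers of male C57/BL6 mice with diet-induced steatohepatitis were compared with and without a dual agonist of the glucagon-like peptide 1 receptor and the glucagon receptor (GLP1R/GCGR), 2 weeks after 70% of the liver had been removed. The members are the arrays that the labels place in these 2 groups, 8 of the 32 livers of the series, with 4 livers per group. Both groups ate a methionine and choline deficient (MCD) diet for 3 weeks, underwent partial hepatectomy and stayed on that diet until sampling. The treated group also received the agonist at 4.4 mg/kg/day, given every other day from the end of the first week of diet and continued after surgery, so treatment began 2 weeks before hepatectomy. The control group received no agonist, and neither group ate a standard diet. Every liver came from a separate animal, the whole tissue was measured, and no comparison here has a sham operation.

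A diet without methionine and choline limits phosphatidylcholine synthesis and the export of very low density lipoprotein, so that hepatocytes fill with fat and the liver becomes inflamed. Glucagon acts on hepatocytes through its receptor, Gs and cyclic AMP, raising glucose output and amino acid and fat catabolism, whereas the GLP-1 receptor is mainly known from the pancreas, brain and gut. After partial hepatectomy the remaining hepatocytes divide and liver mass is restored over days, with Kupffer cells, recruited monocytes and neutrophils taking part. Neutrophil granule proteins are made mostly by immature cells, immunoglobulins by plasma cells, and acute phase proteins by hepatocytes under interleukin 6 and interleukin 1.

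The start regions of 3 neutrophil genes and 1 acute phase gene are printed, because members of these lists are described at length. They were chosen after their values were seen, and of the 4 only Prtn3 passed the test given later. Each sequence is the 250 bases before the RefSeq start of the gene on GRCm38.p6, read 5' to 3' on the strand of the gene. Capitals mark TTGCNNAA, a core pattern of C/EBP factors, on either strand. The windows are chr10:79879417-79879666 (plus strand) for Prtn3, chr9:111019042-111019291 (plus) for Ltf, chr3:90695722-90695971 (minus) for S100a9 and chr7:46715677-46715926 (minus) for Saa3.
Prtn3: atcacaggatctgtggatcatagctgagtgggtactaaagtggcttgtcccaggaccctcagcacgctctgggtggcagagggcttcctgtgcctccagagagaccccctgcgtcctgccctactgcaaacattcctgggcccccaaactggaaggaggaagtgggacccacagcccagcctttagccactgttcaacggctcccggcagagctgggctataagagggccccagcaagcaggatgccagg
Ltf: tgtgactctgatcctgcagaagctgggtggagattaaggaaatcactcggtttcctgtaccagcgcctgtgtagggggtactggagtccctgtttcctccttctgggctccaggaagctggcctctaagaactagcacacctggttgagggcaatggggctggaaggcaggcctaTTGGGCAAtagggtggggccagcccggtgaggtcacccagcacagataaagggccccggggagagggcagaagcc
S100a9: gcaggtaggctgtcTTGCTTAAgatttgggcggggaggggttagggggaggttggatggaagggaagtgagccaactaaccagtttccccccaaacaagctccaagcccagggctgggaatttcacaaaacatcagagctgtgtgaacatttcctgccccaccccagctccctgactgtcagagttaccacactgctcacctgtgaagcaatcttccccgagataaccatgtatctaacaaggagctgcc
Saa3: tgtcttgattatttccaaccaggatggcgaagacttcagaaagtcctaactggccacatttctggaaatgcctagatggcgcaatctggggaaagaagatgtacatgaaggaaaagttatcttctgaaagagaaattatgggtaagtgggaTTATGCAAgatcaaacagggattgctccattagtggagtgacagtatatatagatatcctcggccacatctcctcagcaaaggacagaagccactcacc
The Prtn3 window holds 0 matches and each of the other windows holds 1. Over whole lists, TTGCNNAA stood in 7 of 14 neutrophil gene promoters (50%), 14 of 23 acute phase promoters (60.9%), 2 of 15 cytokine and adhesion promoters (13.3%) and 1 of 16 promoters of cAMP targets (6.25%), against 9.74% of the 11950 promoters of tested genes. The cAMP response element TGACGTCA stood in 1 of the 16 promoters of cAMP targets (6.25%) and in 2.76% of tested promoters. An NF-kB pattern (GGG, any 2 letters, TTTCC) stood in 3 of the 15 cytokine and adhesion promoters (20%) and 2 of the 23 acute phase promoters (8.7%), against 1.71% of tested promoters. Both strands were searched, and a stretch that matches one pattern cannot match another. These are letter matches in one window per gene and no measure of binding.

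Values are levels on the log2 scale, where 0 is the 75th percentile of the array, and differences are log2 changes ± SE of treated minus control livers with Benjamini-Hochberg adjusted p from limma. All 8 arrays lay on 1 slide, the controls in row 1 and the treated livers in row 2, so row and treatment cannot be told apart. The replicate number is also the column on the slide, so same-numbered arrays share a column. The share of probes that cleared background was 44.28%, 44.9%, 52.21% and 56.92% in control livers and 49.84%, 57.78%, 58.3% and 57.76% in treated ones (exact permutation test, two-sided, p = 0.1714), and at most 2 spots were saturated. Control replicates 1 and 2 stood apart from all others on the first principal component, at -77.34 and -63.02, while control replicates 3 and 4 were at -9.034 and 5.409 and the treated livers between 34.6 and 38.06. Treated replicates 1 and 4 carried transcripts of the exocrine pancreas, described next, and each main result is therefore given with and without them. As a check of the diet label, control livers had Scd1, a fatty acid desaturase, at 5.35 ± 0.78 (SD, n = 4) and the asparagine synthetase gene Asns at 5.84 ± 0.19, where livers on the standard diet after hepatectomy had 8.14 ± 0.16 and 2.46 ± 0.98 on another slide. The liver marker Alb was between 9.45 and 10.23 in all 8 livers.

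Pancreatic acinar transcripts were uneven among the treated livers. Of 22 acinar genes tested (36 in the list), between 13 and 16 were well above background in control livers and 21 or 22 in treated livers. Their summed linear level, in units of the 75th percentile of the array, was 15.6 to 21.1 in controls and 50.17, 20.91, 19.39 and 30.42 in treated replicates 1 to 4. Ctrb1, a chymotrypsinogen, was -0.42, -0.14, -0.02 and -0.38 in controls and 3.31, -0.18, -0.16 and 1.53 in treated livers, so that only treated replicates 1 and 4 left the range of the controls. Try4, a trypsin gene, was -1.54, -3.76, -3.95 and -6.96 in controls and 2.34, -3.26, -1.66 and 0.77 in treated livers, and rose by 3.60 ± 0.83 (adjusted p = 0.04684) with overlapping groups. The change was 1.59 (adjusted p = 0.4951) without replicates 1 and 4. Trypsin genes share sequence, so their probes may not tell them apart. Try5 and the carboxypeptidase Cpa1 also peaked in treated replicate 1, at 2.53 and 2.44. Amy2a5 and Bhlha15, bright in every liver, did not follow this order. The median change of the acinar list was 1.46 with all livers and 0.33 without replicates 1 and 4. These livers were set apart because of their acinar transcripts, so smaller acinar changes without them follow from that choice and are no test.

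**Figure D1:**
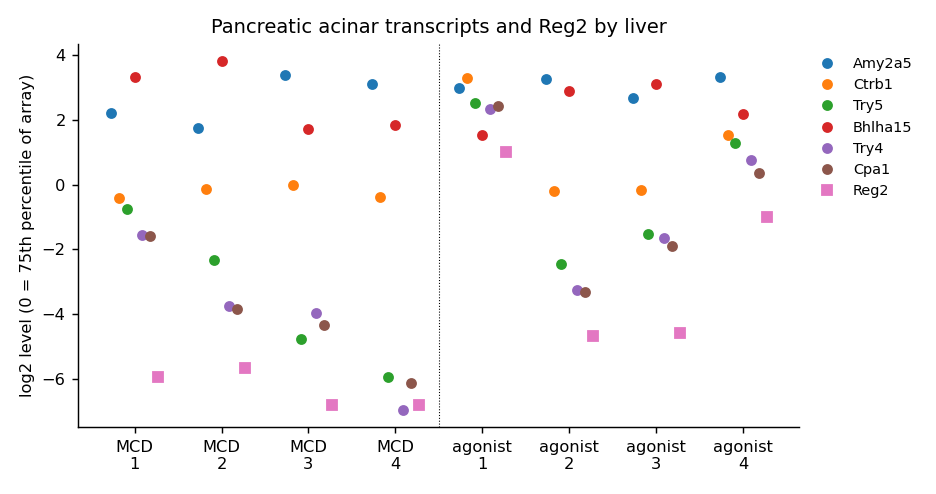
Log2 levels (y axis, 0 = 75th percentile of the array) of 6 pancreatic acinar genes (circles) and Reg2 (squares) in each of the 4 control (MCD) and 4 treated (agonist) livers on the x axis. Ctrb1, Try4, Try5, Cpa1 and Reg2 are highest in treated replicate 1 and next highest in replicate 4, while Amy2a5 and Bhlha15 do not follow them.

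With all 8 livers, 88 of 21691 genes (0.406%) passed the test, of which 40 rose (0.184%) and 48 fell (0.221%) with the agonist. Without treated replicates 1 and 4, 83 passed (0.383%), 27 rises (0.124%) and 56 falls (0.258%). The calls shared by both were 36, 14 rises and 22 falls, which is 40.9% of the first set and 43.4% of the second, and 0 of the 88 changed sign. Of the 88, 55 have a gene symbol (22 rises, 33 falls) and 33 are clones or unnamed transcripts. In 79 of the 88 the 4 treated and 4 control values did not overlap, a separation that 10.2% of all genes showed. The count depended on single livers: it was 19 and 17 without control replicate 1 or 2, 290 without control replicate 4, and 32, 26 and 18 without treated replicate 1, 2 or 3. Without control replicates 1 and 2 together it was 6 (0.0277%), of which 3, Armcx5, Pdxp and Try4, were among the 88. Over all 21691 genes with all 8 livers, 9921 changes were negative and 11570 positive. An unadjusted p under 0.05 from limma was reached downward by 6% of genes and upward by 7.77%.

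**Figure D2:**
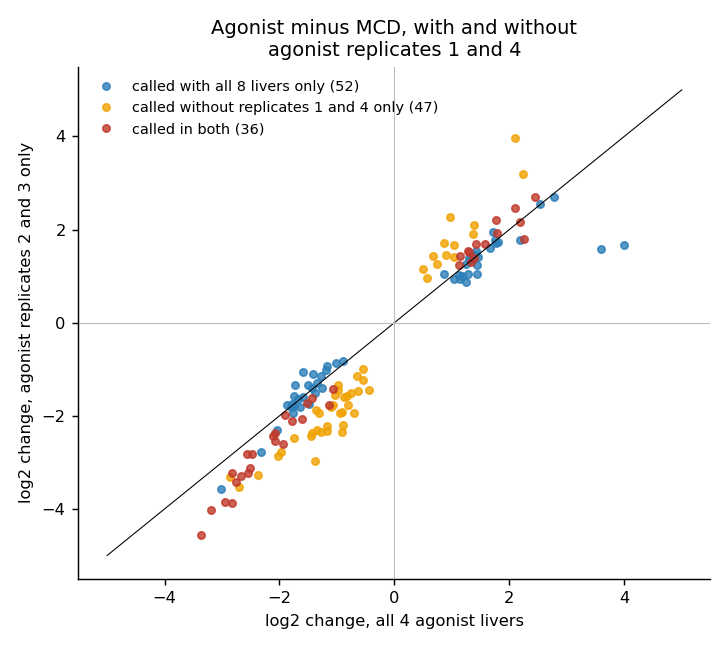
Log2 change, treated minus control, of every called gene with all 4 treated livers (x axis) against treated replicates 2 and 3 alone (y axis), with the diagonal of equal change drawn. The 36 genes called both ways lie along the diagonal, and no gene called with all livers lies on the other side of 0.

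Falls included several immunoglobulin and plasma cell transcripts. The gene listed as Igh-VJ558 is read by a probe annotated as the immunoglobulin heavy constant alpha region, the constant part of IgA (mm9 chr12:114496985-114497044). Its level was 6.09, 6.29, 6.14 and 6.10 in controls and 4.56, 2.20, 1.01 and 3.39 in treated livers. It was thus nearly equal among controls and lower in each treated liver, by -3.36 ± 0.65 (adjusted p = 0.01857), and it fell by 4.55 (adjusted p = 0.003528) without treated replicates 1 and 4. All 7 tested probes under this symbol were lower in treated livers. Jchain, which links IgA and IgM into polymers (chr5:88949919-88949978), was 2.14, 1.95, 2.10 and 1.68 in controls and 0.44, -1.15, -1.35 and -0.26 in treated livers. The groups did not overlap, and Jchain fell by 2.55 ± 0.55 (adjusted p = 0.03109), or by 3.22 (adjusted p = 0.02806) without replicates 1 and 4. In whole tissue, fewer cells of a type and less RNA per cell cannot be told apart.

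The probe annotated as immunoglobulin kappa constant fell by 2.52 (adjusted p = 0.03122), that of gamma 2B constant by 3.01 (adjusted p = 0.04404) and the heavy variable segment Ighv1-77 by 2.67. The changes were -3.11 (adjusted p = 0.03519), -3.58 (adjusted p = 0.05442) and -3.30 (adjusted p = 0.03782) without treated replicates 1 and 4. The 2 constant probes were singled out after their values were seen. Ighv1-77 was well above background in all 4 controls but in only 1 treated liver, so the size of its fall is uncertain. Across the analysis settings its change was as small as -1.33. Tnfrsf17, the receptor BCMA of plasma cells, was well above background in 1 control liver and in 0 treated livers, and was at least 1.158-fold lower (adjusted p = 0.03109). Among all 50 tested genes whose annotation names an immunoglobulin, a set formed after the calls were seen, 9 fell and 0 rose, 46 changes were negative and 33 were lower without overlap, against 5.44% of all genes. The median change of these 50 was -1.75, and -2.3 without replicates 1 and 4, where 11 fell. Immunoglobulin genes share sequence, so these are not independent readings. Of the 10 B and plasma cell markers, 2 fell and 0 rose with a median of -0.53, beside 0.04 for all genes. Over all 21691 genes, 0.221% fell and 9921 changes were negative. The B cell receptor parts Cd79a and Cd79b were at 0.13 ± 0.46 and -0.66 ± 0.45 and did not pass, and the plasma cell chaperone Mzb1 was at -1.67 ± 0.44 (adjusted p = 0.07562). Cd79a lies outside the naming rule and was added after its values were seen.

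**Figure D3:**
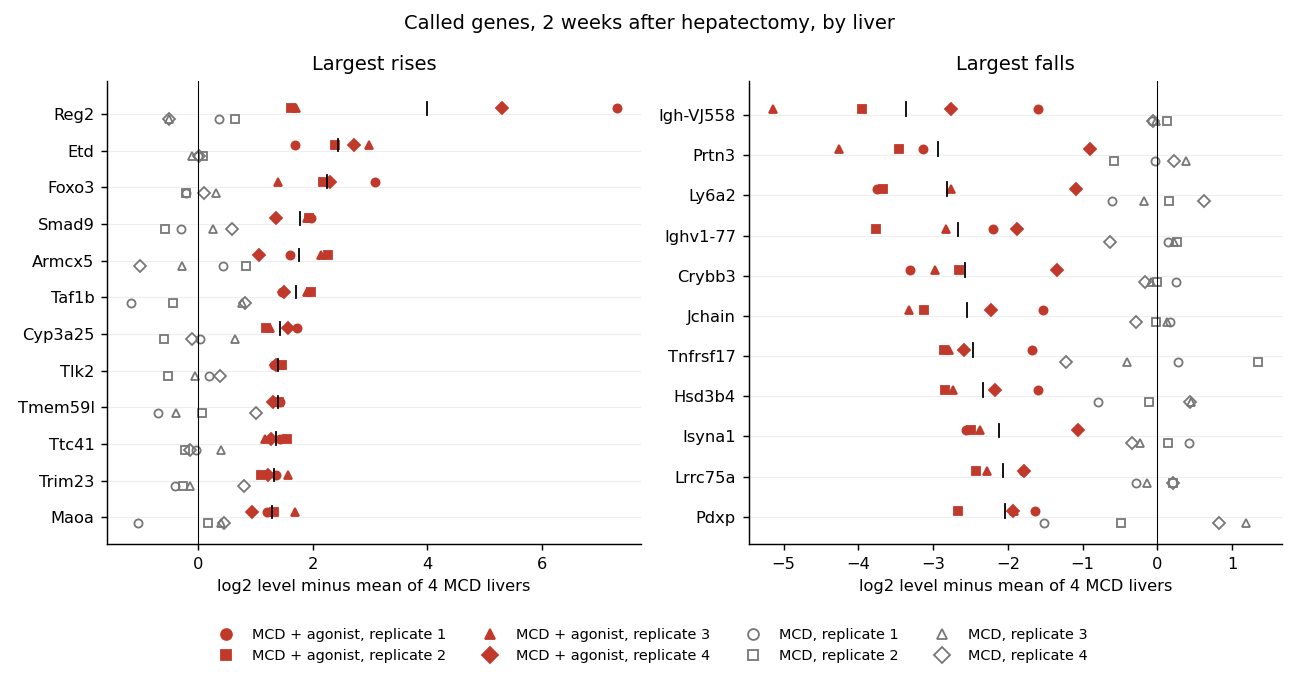
The 12 largest rises (left) and 11 of the 12 largest falls (right) among called genes with a symbol whose groups do not overlap, drawn for each liver as log2 level minus the mean of the 4 control livers (x axis). Open grey symbols are controls, filled red symbols are treated livers with the replicate given by the shape, and the short black bar is the log2 change. The controls of Reg2 and Etd and the treated livers of Tnfrsf17 are not well above background, so their distances are not measured sizes. Ighv1-77 and Ly6a2 were well above background in 1 treated liver each, so their distances are uncertain. The same holds for Taf1b, Trim23 and Ttc41, well above background in 2, 2 and 1 control livers.

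Of 14 neutrophil markers, 1 granule gene fell, where 0.221% of all genes fell. Prtn3, the granule protease proteinase 3 (chr10:79343869-79344685), was 0.99, 0.45, 1.41 and 1.25 in controls and -2.11, -2.43, -3.23 and 0.12 in treated livers. Treated replicate 4 came closest to the controls, yet the groups did not overlap, and Prtn3 fell by 2.94 ± 0.68 (adjusted p = 0.04684), or by 3.86 (adjusted p = 0.02252) without replicates 1 and 4. Ltf, the iron-binding granule protein lactoferrin, was -1.56, 1.61, 1.94 and 2.89 in controls and -4.55, -2.77, -3.51 and -0.03 in treated livers. Camp, the antimicrobial peptide cathelicidin, was 0.83, 2.89, 4.10 and 4.74 in controls and -1.81, -1.05, -1.56 and 1.92 in treated livers. In both genes control replicate 1 was low and treated replicate 4 high, so the groups overlapped, and the changes of -3.93 ± 1.06 (adjusted p = 0.08415) and -3.76 ± 1.02 (adjusted p = 0.09082) did not pass. The calprotectin subunits S100a8 and S100a9 were at -2.29 ± 0.65 (adjusted p = 0.1084) and -2.21 ± 0.63 (adjusted p = 0.1096).

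Over the whole list 0 rose and 13 changes were negative, against 9921 of all 21691 genes. The median was -2.22, or -2.76 without treated replicates 1 and 4 and -2.36 without control replicates 1 and 2. In 11 of the 14 the unadjusted p was under 0.05 in the lower direction, which 6% of all genes reached. The mean of the list relative to controls was -0.9, -0.12, 0.3 and 0.72 in the control livers and -2.85, -2.06, -3.01 and -0.48 in the treated livers. Not all members shared this. The surface antigen Ly6g, at 0.03 ± 0.31, and the neutrophil elastase gene Elane, at -0.23 ± 0.39, were close to 0, and both were singled out after their values were seen. Lcn2, a lipocalin made by neutrophils and by inflamed hepatocytes, was 9.69, 9.91, 9.68 and 9.35 in controls and 7.07, 8.52, 8.25 and 9.31 in treated livers, a change of -1.37 ± 0.99 (adjusted p = 0.5754) without overlap.

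Only 1 of the T and NK cell markers fell. Il2rb, a receptor chain for interleukins 2 and 15 on T and NK cells, was -0.08, -0.02, -0.79 and -0.75 in controls and -1.40, -1.97, -1.84 and -1.98 in treated livers. All treated values lay below all controls, and Il2rb fell by 1.39 ± 0.30 (adjusted p = 0.03109). Without treated replicates 1 and 4 the change was -1.50 (adjusted p = 0.07193). Of 13 T and NK cell markers 1 fell and 0 rose, with 11 negative changes and a median of -0.46. Over all 21691 genes, 0.221% fell and 9921 changes were negative. Ccl5, a chemokine of T and NK cells, had non-overlapping groups at -1.11 ± 0.27 (adjusted p = 0.06257), while the T cell receptor part Cd3d was at -0.68 ± 0.26. Outside the lists, and named after their values were seen, the chemokine receptor Cxcr3 fell by 1.34 ± 0.29, the pyrin gene Mefv by 1.76, the Langerhans cell lectin Cd207 by 1.79 and the TAM receptor ligand Gas6 by 1.26. Without treated replicates 1 and 4 the changes were about as large, at -1.29, -1.95, -1.74 and -1.41 in that order, and none of the 4 passed (adjusted p from 0.05022 to 0.1292).

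None of the 17 markers of recruited macrophages and none of the 13 Kupffer cell markers passed. Yet 16 and 13 of the changes were negative, against 9921 of all 21691 genes. The medians of these 2 lists were -0.86 and -0.61, and -1.06 and -0.88 without treated replicates 1 and 4. Ccr2, the receptor that brings monocytes into tissue, was -0.72, -1.37, -2.31 and -1.53 in controls and -3.49, -3.55, -2.74 and -3.48 in treated livers, a change of -1.83 ± 0.63 (adjusted p = 0.1813) without overlap. The scavenger receptor Marco was at -1.61 ± 0.58 and the complement gene C1qa at -1.27 ± 0.50. C1qa illustrates the spread among controls, being 4.66, 4.60, 3.58 and 3.19 in controls and 2.00, 2.38, 2.74 and 3.85 in treated livers. Without control replicates 1 and 2 the medians were -0.46 for recruited macrophage and -0.32 for Kupffer cell markers. The macrophage genes Cd68 and Trem2 were at -0.84 ± 0.52 and -0.74 ± 0.82. The 9 MHC class II and dendritic genes gave 0 calls, with 9 negative changes and a median of -0.66.

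Acute phase genes gave 0 calls among 26. Yet 23 changes were negative, against 9921 of all 21691 genes, and the median was -0.57. In 10 of the 26 the unadjusted p was under 0.05 in the lower direction, which 6% of all genes reached. Saa3, the serum amyloid A gene of macrophages and fat, was 4.23, 4.60, 3.06 and 2.78 in controls and 0.90, 0.80, 0.26 and 2.00 in treated livers. All treated values lay below all controls, and the change was -2.68 ± 0.70 (adjusted p = 0.07607). The hepatocyte genes Saa1 and Saa2 were at -2.18 ± 0.77 and -2.53 ± 0.79 and overlapped, since treated replicate 4 had levels of 8.64 and 7.49, within the range of the controls. Orm3, an orosomucoid, was 5.18, 5.22, 3.86 and 4.56 in controls and 0.85, 1.15, 1.31 and 4.08 in treated livers, so that replicate 4 again stood with the controls. Without replicates 1 and 4 the median of the list was -0.79, and the cytokine-induced secreted glycoprotein Lrg1, named after its values were seen, fell by 1.94 (adjusted p = 0.03784), against -1.31 with all livers.

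Hamp, the iron hormone hepcidin, went the other way from most of that list. It was 6.30, 6.78, 4.12 and 3.74 in controls and 7.27, 8.30, 8.04 and 8.26 in treated livers. All treated livers were above all controls, and controls 3 and 4 were lowest. The change was 2.73 ± 0.66 (adjusted p = 0.0556). Without control replicates 1 and 2 Hamp rose by 4.04 (adjusted p = 0.03663), and without treated replicates 1 and 4 it was at 2.94 (adjusted p = 0.1299). On the standard diet the agonist change of Hamp was 0.42. The iron transporter Slc11a2, named after its values were seen, fell by 1.51 ± 0.29 (adjusted p = 0.01857) on its brighter probe, while a second tested probe differed by 0.1. The change was -1.34 (adjusted p = 0.1243) without treated replicates 1 and 4. Among 7 erythroid markers 0 passed and the median was -0.72. Negative changes numbered 6, against 9921 of all 21691 genes. The globin genes Hbb-b1 and Hba-a1 were at -1.23 ± 0.45 and -0.87 ± 0.35, with no overlap between groups in either.

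Of 22 cytokine, chemokine and adhesion genes 0 passed, with a median of -0.51. Negative changes numbered 20, against 9921 of all 21691 genes. Il1b, the inflammasome cytokine interleukin 1 beta, was 0.11, -0.58, -0.69 and -1.10 in controls and -2.23, -2.0, -2.04 and -2.32 in treated livers, without overlap and with a change of -1.59 ± 0.39 (adjusted p = 0.06257). Ccl8, a monocyte chemokine, was well above background in all 4 controls and in 0 treated livers, so that it was at least 5.051-fold lower (adjusted p = 0.06437). Cxcl1, a neutrophil attractant, was at -2.38 ± 0.82 with no overlap, and the B cell attractant Cxcl13 was at -2.62 ± 0.79, with treated replicate 4 at 2.03 inside the control range of 1.73 to 3.11. Among 29 interferon response genes 0 passed, with a median of -0.12. The immunoproteasome subunit Psmb8, at -0.95 ± 0.28, and the antiviral gene Oas2, at -1.05 ± 0.32, had non-overlapping groups.

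**Figure D4:**
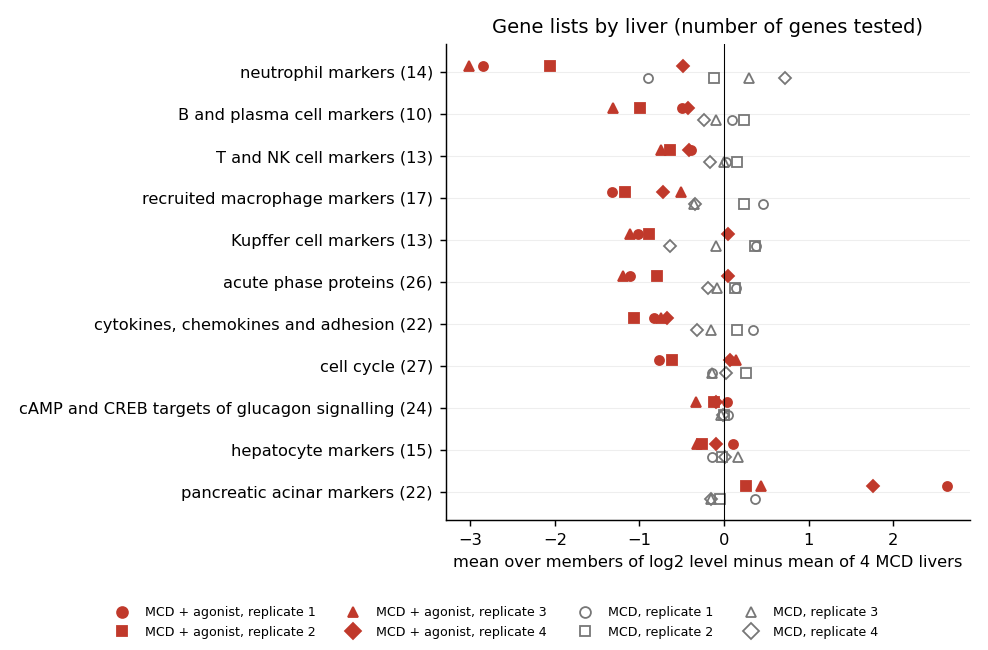
Mean over the members of each gene list of the log2 level minus the mean of the 4 control livers (x axis), for each control (open grey) and treated (filled red) liver, with the number of genes tested in brackets. Treated replicate 4 lies nearest the controls for neutrophil, Kupffer cell and acute phase lists, at -0.48, 0.05 and 0.05, and treated replicates 1 and 4 lead the acinar list at 2.63 and 1.76.

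Treated replicate 4 was thus nearest the controls for the neutrophil, Kupffer cell and acute phase lists. For recruited macrophage and MHC class II genes replicate 3 was nearest, at -0.51 and -0.25, and for interferon genes replicate 4 was the farthest, at -0.39. Treated replicates 1 and 4 led the acinar list, at 2.63 and 1.76, and their neutrophil list stood at -2.85 and -0.48. From treated replicates 2 and 3 alone, the medians of the neutrophil, acute phase and B and plasma cell lists were -2.76, -0.79 and -0.90. The part of acinar tissue in these differences was not tested.

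Among the rises was Reg2, a secreted regenerating islet-derived lectin of the pancreas (chr6:78357959-78358018). It was -5.94, -5.66, -6.80 and -6.81 in controls, not well above background in any of them, and 1.01, -4.67, -4.59 and -1.0 in treated livers. Replicates 1 and 4, which lead the acinar list, were the highest. Reg2 was at least 4.242-fold higher (adjusted p = 0.01642), and the call was lost without them (adjusted p = 0.1167).

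Foxo3, a forkhead factor held out of the nucleus by insulin signalling, had the smallest adjusted p of the named rises. Its level was -1.82, -1.81, -1.29 and -1.51 in controls and 1.49, 0.58, -0.21 and 0.69 in treated livers, all above the controls, and it rose by 2.25 ± 0.32 (adjusted p = 0.002835). Without treated replicates 1 and 4 it rose by 1.80 (adjusted p = 0.03192). This probe is annotated to a cDNA clone. The second Foxo3 probe, on the RefSeq mRNA, was well above background in 2 livers of each group and was too dim to be tested. Its mean level did not rise, at -4.36 in controls and -4.88 in treated livers. The rise was thus measured at 1 transcript region (chr10:41967288-41967347), and whether the rest of the transcript followed was not tested. Smad9, a mediator of BMP signals, was -2.19, -2.47, -1.63 and -1.31 in controls and 0.07, 0.04, 0.00 and -0.54 in treated livers, and rose by 1.79 ± 0.33 (adjusted p = 0.01654), or by 1.92 (adjusted p = 0.03686) without treated replicates 1 and 4. Armcx5, an X-linked armadillo repeat gene, was -0.67, -0.27, -1.39 and -2.12 in controls and 0.50, 1.15, 1.04 and -0.05 in treated livers. It rose by 1.77 ± 0.36 (adjusted p = 0.028), by 2.21 (adjusted p = 0.01919) without treated replicates 1 and 4 and by 2.42 (adjusted p = 0.01713) without control replicates 1 and 2. Armcx5 was the only rise called in each of these fits.

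Among enzymes that rose was Cyp3a25, a cytochrome P450 of the hepatocyte. It was 5.79, 5.17, 6.40 and 5.66 in controls and 7.48, 6.95, 7.02 and 7.32 in treated livers, and rose by 1.44 ± 0.34 (adjusted p = 0.049). The groups did not overlap, but the call was lost without treated replicates 1 and 4, at 1.23 (adjusted p = 0.257). Maoa, the mitochondrial amine oxidase, rose by 1.30 ± 0.27 and by 1.52 (adjusted p = 0.03782) without those livers, and the arylamine acetyltransferase Nat2, named after its values were seen, rose by 1.03. Other rises by the naming rule were the polymerase I factor Taf1b at 1.72, the kinase Tlk2 at 1.40, Tmem59l at 1.39, Ttc41 at 1.36 and the ubiquitin ligase Trim23 at 1.32. Without treated replicates 1 and 4 the changes were 1.95, 1.45, 1.40, 1.36 and 1.34 in that order, and of these 5 Tmem59l alone was called. Nat2 was at 0.93 there (adjusted p = 0.1009). Further tested probes of Tlk2 differed by 0.97 and 0.27. Taf1b, Trim23 and Ttc41 were well above background in only 2, 2 and 1 control livers, so the sizes of their rises are uncertain. Across the analysis settings their changes were as small as 0.49, 0.40 and 0.19. The non-coding RNA Etd was well above background in 0 control and 3 treated livers and was at least 1.920-fold higher. Krt23, a keratin induced in injured liver and named after its values were seen, was -0.38, -0.22, -0.51 and 0.18 in controls and 2.14, 3.14, 2.77 and -0.07 in treated livers. Only replicate 4 overlapped the controls, and Krt23 rose by 3.19 (adjusted p = 0.04728) without replicates 1 and 4 but not with them, at 2.23 ± 0.66.

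Falls outside the leukocyte groups included Isyna1, the enzyme that makes inositol phosphate from glucose 6-phosphate. It was 5.43, 5.15, 4.78 and 4.67 in controls and 2.45, 2.51, 2.63 and 3.95 in treated livers. Treated replicate 4 lay between the other treated livers and the controls, and Isyna1 fell by 2.12 ± 0.41 (adjusted p = 0.01857), or by 2.44 (adjusted p = 0.02078) without replicates 1 and 4. Crybb3, a lens crystallin, fell by 2.57 ± 0.44 and Lrrc75a by 2.07 ± 0.36, both called also without those livers. Pdxp, the pyridoxal phosphatase of vitamin B6 turnover, was -3.48, -2.45, -0.77 and -1.14 in controls and -3.60, -4.63, -3.88 and -3.89 in treated livers. It fell by 2.04 ± 0.46 (adjusted p = 0.04223), and by 3.05 (adjusted p = 0.008866) without control replicates 1 and 2, and was the only fall called there. Other falls by the naming rule were Ly6a2 at -2.82 and the steroid dehydrogenase Hsd3b4 at -2.33. Of this pair, Ly6a2 alone was called without treated replicates 1 and 4, and Pdxp was not, at -2.30 (adjusted p = 0.07918). Ly6a2 was well above background in all 4 controls but in only 1 treated liver, so the size of its fall is uncertain. Across the analysis settings its change was as small as -1.28.

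The receptors of the agonist and the classical genes of glucagon signalling gave 0 calls. Gcgr was 6.67, 7.18, 7.31 and 6.96 in controls and 7.28, 7.22, 6.83 and 6.71 in treated livers, overlapping fully, with a change of -0.02 ± 0.24. Glp1r was far dimmer, well above background in 3 control and 4 treated livers, and changed by 0.54 ± 0.48. Of 17 receptor and cAMP machinery genes 0 passed, with a median of 0.05. Of 24 cAMP and CREB target genes 0 passed, the median was -0.05, and an unadjusted p under 0.05 was reached by 0 genes upward and 1 downward, where 7.77% of all genes reached it upward. Pck1 and G6pc, enzymes of gluconeogenesis, were at -0.48 ± 0.34 and 0.03 ± 0.83, and their coactivator Ppargc1a at -0.43 ± 0.48. Of 18 immediate early genes 0 passed, with a median of -0.36. Negative changes numbered 15, against 9921 of all 21691 genes. Egr1 and Jun, transcription factors of the first growth response, had non-overlapping groups at -1.48 ± 0.49 (adjusted p = 0.1687) and -1.31 ± 0.47 (adjusted p = 0.1983).

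Lipid and bile acid genes did not pass either. Lipogenesis gave 0 calls of 22 genes (median -0.17), cholesterol synthesis 0 of 25 (median -0.14) and fatty acid oxidation and ketogenesis 0 of 30 (median 0.12). The cholesterol median turned with the livers used, being 0.22 without treated replicates 1 and 4 and -0.50 without control replicates 1 and 2. Scd1 was 5.94, 6.08, 4.49 and 4.88 in controls and 5.11, 3.44, 3.49 and 5.47 in treated livers, a change of -0.97 ± 0.53 with overlap. Ehhadh, a peroxisomal enzyme of fat oxidation, was at 1.14 ± 0.37 and Cpt1a, the gate of mitochondrial fat oxidation, at 0.45 ± 0.22. Fgf21, a fasting hormone of the liver, was 3.85, 4.08, 3.52 and 3.42 in controls and 0.92, 3.42, 3.38 and 1.74 in treated livers. The 2 livers with acinar transcripts were the low ones, so that the change of -1.35 ± 0.90 was -0.32 without them. Bile acid synthesis and transport gave 0 calls of 21 and a median of 0.43, or 0.12 without control replicates 1 and 2. Cyp7a1, the rate-limiting enzyme of bile acid synthesis, was -0.34, 0.95, 1.74 and 2.06 in controls and 4.42, 3.06, 1.49 and 2.64 in treated livers (1.80 ± 0.89, adjusted p = 0.3771). Cyp8b1, which sets the share of cholic acid, was higher in all treated livers without overlap, at 2.09 ± 1.13 (adjusted p = 0.4276).

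Methionine cycle, mitochondrial and growth genes showed small changes. Of 25 methionine and choline genes 0 passed, 18 changes were positive and 6 had an unadjusted p under 0.05 upward, with a median of 0.18. Over all 21691 genes, 11570 changes were positive and 7.77% had an unadjusted p under 0.05 upward. Gnmt and Bhmt, which dispose of S-adenosylmethionine and remake methionine, were higher without overlap at 0.70 ± 0.25 and 0.87 ± 0.34. Of 28 respiratory chain subunits 0 passed, 23 changes were positive and 7 had an unadjusted p under 0.05 upward, with a median of 0.34, or 0.24 without treated replicates 1 and 4. Uqcrc1, a core protein of complex III, was at 0.76 ± 0.21 (adjusted p = 0.09082). Of 27 cell cycle genes 0 passed and the median was -0.23. The proliferation marker Mki67 was 0.60, 0.60, 0.28 and 0.83 in controls and -0.87, -1.05, 0.31 and 0.58 in treated livers. Treated replicates 1 and 2 were low and replicates 3 and 4 within or near the controls, and the change was -0.83 ± 0.63. Ccnd1, cyclin D1, was at 0.05 ± 0.48. Of 26 growth factor and receptor genes 0 passed. Among them the epidermal growth factor gene Egf was at 1.32 ± 0.32 (adjusted p = 0.06242), well above background in 1 control and 4 treated livers, and Fgfr1 at -0.91 ± 0.30, both without overlap. Of 31 extracellular matrix genes 0 passed, with a median of 0.26. The protease inhibitor Timp1 was lower without overlap at -1.44 ± 0.89 and missed the threshold. Fetub and Inhbe, a fetuin and an activin subunit secreted by hepatocytes, were at -0.84 ± 0.21 (adjusted p = 0.07011) and -1.61 ± 0.48.

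The same agonist contrast was measured after hepatectomy on the standard diet, in 4 treated and 4 control livers of another slide, and shares no liver with the comparison here. There 2 genes passed (0.00922%), and 0 genes were called on both diets. Of the 88 genes called on the MCD diet, 65 changed in the same direction on the standard diet. Whether this count differs from that of other genes was not tested. The changes on that diet were 0.10 for Jchain, 0.95 for Igh-VJ558, -0.70 for Prtn3, 0.79 for Ltf, 0.02 for Saa3, 0.44 for Foxo3, 0.00 for Armcx5 and 0.62 for Cyp3a25. The difference between the diets in the agonist response was tested for every gene, and 1 gene passed (0.00461%), while 4.76% had an unadjusted p under 0.05. None of the genes just named passed that test, the smallest adjusted p among them being 0.2362 for Igh-VJ558 at -4.32 ± 0.92. The 1 gene was Cyp2b13, a P450 higher in female mice. It was -0.44, -0.81, -0.35 and -0.41 in controls and -0.10, -0.37, -0.42 and -0.93 in treated livers on the MCD diet, a change of 0.04. On the standard diet it was well above background in 0 of 4 control and 4 of 4 treated livers, with measured means of -5.96 and -3.33, and was at least 2.382-fold higher with the agonist (limma adjusted p = 3.079e-05). The fitted difference was -2.59 ± 0.43 (adjusted p = 0.02952), whose size rests on those control levels below background.

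**Figure D5:**
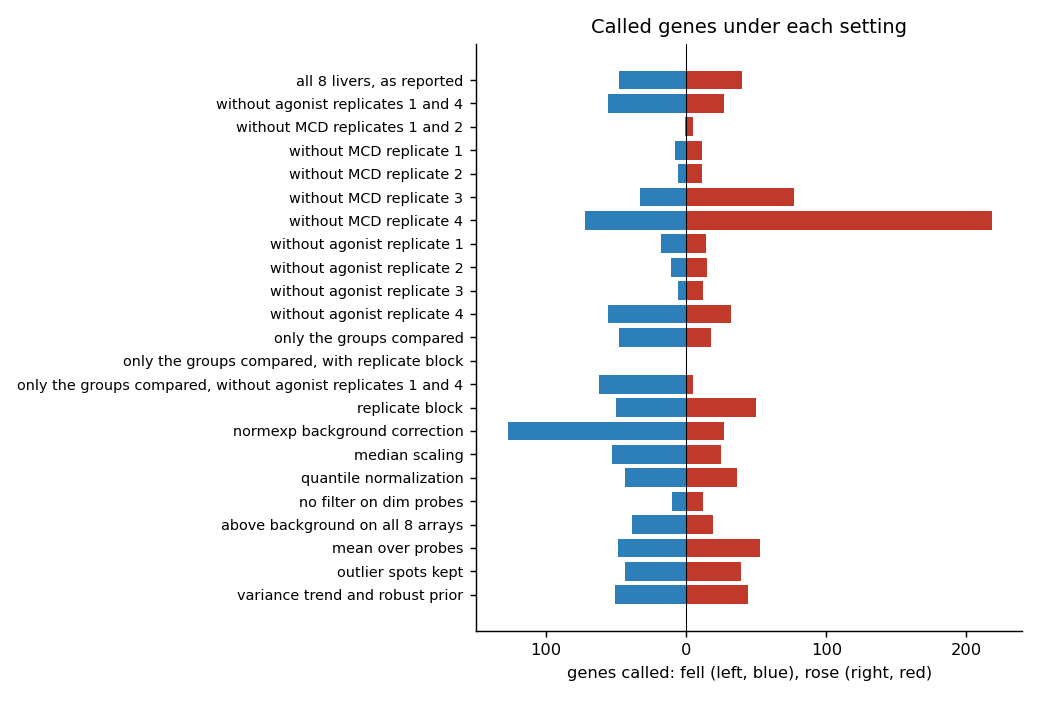
Number of genes that fell (left, blue) and rose (right, red) under the analysis as reported (top) and each other setting, with 1 setting per row. Leaving out control replicate 4 gives the most calls (290), and fitting the 2 groups alone with the replicate number as a block gives 0.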

How the data were processed

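Total RNA of frozen livers was labelled as Cy3 cDNA and hybridised to one-colour Agilent arrays, 1 per liver, per the labels' protocols. Per the file headers, Feature Extraction 10.7.3.1 produced the deposited scanner files, whose processed signal is a background-subtracted linear intensity. A second deposited table holds the submitters' own normalised levels, which are log2 values judging by their range, and their processing notes name limma. That table was not analysed further, since 16 of its 32 columns best matched arrays of another group, the 4 MCD columns after hepatectomy among them.

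Here log2 intensity was scaled to the 75th percentile of each array, without control spots and outlier spots (0.264%). Probes were tested where any group had a signal well above background on each of its 4 arrays (30118 probes), and a gene is its brightest probe (21691 genes, 5888 with several tested probes). Symbols came from RefSeq accessions (15203 genes) or from the files (6488). Probe coordinates are mm9, as in the files, and exon or UTR was not looked up. One limma fit over all 8 groups (R 4.3.3, limma 3.58.1) gave adjusted p, called under 0.05. "At least N-fold" sets the bright group against the level where probes reach background. Separate animals are the replicates, so p-values measure the spread between livers, and the number of arrays limits the precision.

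Members, the 46 gene lists and tests were chosen with earlier results of these data known. The naming rule gives the 12 largest rises and falls among called genes without overlap and with direction kept without treated replicates 1 and 4, up to 5 members of each list with the smallest adjusted p, the 6 brightest acinar genes of those livers and a set of focal genes. Clones are left out, and a few genes the rule covers are not reported here. Exceptions are marked in the text. The labels do not pair the livers by replicate number, which is the column on the slide. Deviations of same-numbered arrays correlated at 0.0562, 0.0418, -0.0665 and 0.101. Alternatives were other scalings, filters, probe rules, fits and arrays left out. In simulated data with 200 changed genes (21691 genes, 10 draws), 27.1% of 2-fold and 82.5% of 4-fold changes of this comparison were called. Without treated replicates 1 and 4 the shares were lower, at 12.3% and 65.3%, so a call lost there can reflect fewer livers.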

Additional observations from a re-analysis of the deposited data

Results flagged for a closer look

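In 21 of 382 sets of 4 values examined, 1 liver lay far from its other 3, by a rule that chance meets in about 1 set in 20. Among treated livers, replicate 4 was apart in Smad9 (-0.54), Isyna1 (3.95), Adgre1 (1.78), Orm3 (4.08), Stat2 (2.37) and Mat2a (5.28). Treated replicate 1 was apart in Cyp2a12 (7.88) and Oas2 (-0.35), replicate 2 in Ccl5 (0.72) and replicate 3 in Ccr2 (-2.74) and Slc25a1 (5.03). Among controls, replicate 1 was apart in Gnmt (7.17), Osmr (1.51) and Mefv (1.48), replicate 3 in Dhcr7 (3.36), Hbb-b1 (4.03) and Ppbp (-0.58), and replicate 4 in Ighv1-77 (-2.67), Marco (6.44) and Uqcrc1 (4.36). All these values are log2 levels. Treated replicate 1 also had fewer probes well above background (49.84%) than the other treated livers.

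The agonist response of Cyp2b13 differed between the diets by a fitted -2.59 in the test of the difference itself. The probe was well above background in 0 of 4 untreated livers on the standard diet, so this size is not a measured one.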

How the results depend on the processing

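With 1 liver left out, 17 to 290 genes were called, 11 to 218 rises and 6 to 72 falls, and 0 to 3 in the difference between diets. That difference lost its 1 call (0 called) without treated replicates 1 and 4, without control replicates 1 and 2, under the replicate block, normexp correction, median scaling, quantile normalization and no filter on dim probes, and gave 3 calls with only the groups compared and without treated replicates 1 and 4. Without control replicates 1 and 2, chosen after seeing the data, 6 genes were called, 5 rises and 1 fall. With only the groups compared, 66 genes were called, of which 18 rose, and only 26 of the 66 were among the 88. Without treated replicates 1 and 4 in addition, 67 were called, of which 5 rose, and only 18 of the 67 were among the 88. The replicate block, which is also a block by slide column, gave 100 calls in the fit of all arrays (50 rises, 50 falls). With only the groups compared it gave 0 calls, 0 rises and 0 falls, and 0 also for the difference. Normexp correction gave 154 calls and 127 falls, median scaling 25 rises, no filter on dim probes 22 calls (12 rises, 10 falls) of 34779 genes, and genes above background on all 8 arrays 58 calls with 19 rises of 17065 genes. Fewer or more genes were tested in the last pair, and for the other settings the cause was not tested. The counts of calls stayed within 1.5 times of the 88 under quantile normalization (80), the mean over probes (102), outlier spots kept (83) and a variance trend with robust prior (95).

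Median scaling moved the median of all genes from 0.04 to -0.07, and no filter on dim probes moved it to -0.1. Of 756 alternative values of the 35 named genes past the threshold, 442 stayed past it and 0 turned in sign. Of 3393 values of the other named genes, 38 passed and 81 turned in sign. A slide block could not be fitted, because slide is fixed by the groups. Probes near background limit Reg2, Etd, Tnfrsf17, Ccl8 and, on the standard diet, Cyp2b13 to bounds. Ighv1-77, Ly6a2, Taf1b, Trim23 and Ttc41 were near background in several livers of 1 group, so the sizes of their changes are uncertain.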
